A study of Mus musculus with 2 samples.

Results

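Wide solitary TBX5 peaks are stretches of adult mouse ventricle chromatin that were called as 1 broad TBX5 peak with no other peak near by. The members were chosen by measured values of the list itself: a width of 300 bp or more, and no other summit within 50 kb of the peak's own summit. Of 8841 TBX5 peaks on chromosomes 1 to 19 and X, 3286 were solitary, and 562 of these were wide (17.1% of solitary peaks, 95% Wilson interval 15.9 to 18.4, and 6.36% of the list). They are described against the 2724 narrower solitary peaks and, where position matters, against the 1334 wide peaks that did have a neighbour. The chromatin came from cardiac ventricles of 15-week-old wild-type C57BL/6 mice. It was fixed with 2% formaldehyde, sonicated and immunoprecipitated with an antibody against TBX5 (HPA008786), and the study used a rabbit IgG as control. The submitters describe 2 biological replicates per antibody, but the analysed list is a merged one and no value has a spread between replicates. Whole ventricle tissue was used, so the cell types behind a peak cannot be told apart.

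TBX5 is a transcription factor of the T-box family that binds a short DNA element and acts with partner factors of the heart. It is required for the formation of the heart and its conduction system, and the study asks what it does in the adult ventricle. In chromatin immunoprecipitation with sequencing (ChIP-seq), a factor bound at a single point gives a pile of fragments about as broad as the fragments reach. A peak broader than that has fragments that lie too far out to touch its highest point, the summit. No genome or annotation of mm9, the build of these coordinates, was used here, so no gene, motif or sequence is given for any peak.

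Every measure of height, width and enrichment below comes from the pileup that chose the members, so these values describe them and no difference was tested. Fragments are TBX5 fragments at the summit, computed from the authors' fold enrichment and −log10 p, and the control level is the local level of control fragments per position, computed the same way. A scale smaller by a factor of 2 would double every fragment number and fit as well, so the numbers are comparable among peaks but their absolute size, and with it their intervals, rests on the larger scale. The fold enrichment is the authors' ratio of the scaled TBX5 pileup to that level, solved with a pseudocount of 1 added to both. A fold is therefore lower than the plain ratio of fragments to level, most of all over low control levels. Intervals on fragments are 95% Poisson intervals, those on shares are 95% Wilson intervals, and both cover counting error only, since sequencing reads that carry no molecular identifiers may be copies of 1 molecule. Peaks of 1 list are not replicates.

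The wide solitary peaks were taller than the narrower solitary ones and much like the wide peaks that had a neighbour. Their width had a median of 365.5 bp, quartiles of 328 and 433 bp and a range of 301 to 1178 bp. Of them, 233 were under 350 bp, 131 from 350 to under 400 bp, 116 from 400 to under 500 bp and 82 were 500 bp or more. The summit held a median of 52 TBX5 fragments (quartiles 37 and 74, range 14 to 216), against 28 (quartiles 20 and 38, range 10 to 135) in narrower solitary peaks. The median fold was 8.51 (quartiles 5.43 and 13.1) against 5.32 (quartiles 4.08 and 6.98). A fold of 10 or more was found in 227 members (40.4%) and in 236 narrower solitary peaks (8.66%). In wide peaks with a neighbour the medians were 57 fragments, a fold of 8.44 and a width of 383 bp, so these heights were not particular to solitary peaks. The ranges of wide and narrower solitary peaks overlapped over most of their length, so width and height are related but not interchangeable in these peaks.

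Solitary peaks were 37.2% of the list but a smaller part of its strongest sites, and the solitary ones among those were nearly all wide. Of the 100 peaks of highest score, 27 were wide solitary peaks and 1 was a narrower solitary peak, while 70 were wide and had a neighbour. Wide peaks with a neighbour made up 15.1% of the list. The members made up 6.36% of peaks and 10.7% of all bases covered, 223.9 kb. At least 100 fragments stood at the summits of 72 members and of 7 narrower solitary peaks.

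**Figure D1:**
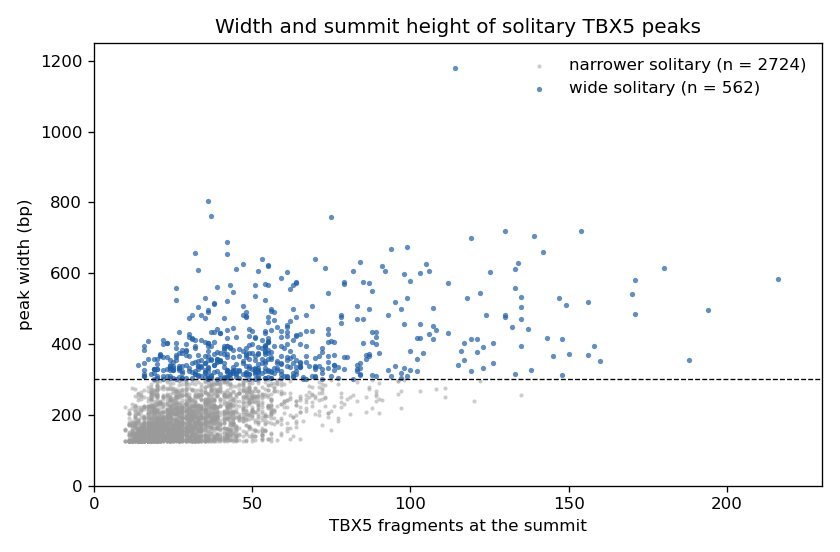
Peak width in bp against the number of TBX5 fragments at the summit for each solitary peak; blue points are the 562 wide peaks, grey points the 2724 narrower ones, and the dashed line is the width threshold. Wide peaks occur at heights from 14 to 216 fragments, while 7 narrower peaks reach 100 fragments.

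The member of highest score was chr10:76048891-76049256, which was only 366 bp wide. Its summit held 145 TBX5 fragments (122 to 171) over a control level of 2, and its fold of 38.4 was the highest among members. The next, chr18:40412283-40412767, was 485 bp wide and had 171 fragments (146 to 199) over a level of 4, a fold of 27.1. The third, chr5:120024962-120025544, was 583 bp wide and held the most fragments of any member, 216 (188 to 247). Over a control level of 9 its fold was 17.1. These peaks show that the order by score does not follow the order by width or by fragments.

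The fourth to eighth members by score had 135 to 194 fragments. The site chr1:130953801-130954154 held 188 fragments in 354 bp, and its next summit was 1546 kb away. The other member on chromosome 1 in this range, chr1:137052880-137053375, held 194 fragments over a level of 7 and was 496 bp wide. On chromosome 11, chr11:85613322-85613841 had 156 fragments and a nearly central summit, with 259 and 260 bp to its ends. A site on chromosome 5, chr5:74757569-74758101, and a site on chromosome 10, chr10:115869445-115869916, both had 135 fragments over a level of 2 and a fold of 35.7, yet were 533 and 472 bp wide. Equal height over an equal control level thus went with different widths.

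The 9th to 15th members by score were 373 to 720 bp wide and had folds of 20.4 to 34.3. Of these, 3 lay on chromosome 8: chr8:27824334-27824706 with 150 fragments, chr8:94082284-94082697 with 148 and chr8:130636867-130637571 with 139. The last of them was 705 bp wide against 373 and 414 bp for the others. The site chr3:138581200-138581592 had 135 fragments and a fold of 34.3. The sites chr17:8609554-8610167, chr2:118542233-118542952 and chr9:70372049-70372650 had 180, 154 and 125 fragments in 614, 720 and 602 bp. The Poisson intervals of neighbours in this order overlap, so the order of their heights is not settled. A fold of 37.7, the second highest among members, was found at chr14:19500023-19500622, where 103 fragments (84.1 to 125) stood over the genome background of 1.18.

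The widest members were not the tallest. The widest, chr10:7008481-7009658, spanned 1178 bp, which is also the widest peak of the whole list, and held 114 fragments (94.0 to 137) with a fold of 25.01. Its summit lay 224 bp from one end and 953 bp from the other. The next, chr16:12697143-12697947, spanned 805 bp with only 36 fragments (25.2 to 49.8) at its summit. A second peak of this kind on the same chromosome, chr16:43303413-43304173, spanned 761 bp with 37 fragments (26.1 to 51.0) and had its summit 95 bp from one end. The peaks chr5:133963578-133964336 (759 bp) and chr2:118542233-118542952 (720 bp) had 75 and 154 fragments. Summits of 36 and 154 fragments thus stood in peaks of similar breadth. Across the 562 members the rank correlation of fragments with width was 0.309, a description of peaks from 1 merged list whose width and height share a pileup. In narrower solitary peaks it was 0.425, and the width threshold cuts the range of widths in both.

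At the other end, 17 members had under 20 fragments at the summit. The lowest was chr4:13084197-13084538, where 14 fragments (7.65 to 23.5) over the genome background of 1.18 made a peak 342 bp wide. Of the 17, 10 stood over the genome background. So few fragments reach the list's cutoff only over a low control level, so the calling sets this too. The peaks chr12:9814235-9814560, chrX:10335978-10336286, chr14:18575561-18575869 and chrX:34513005-34513386 had 16 fragments each (9.15 to 26.0) and were 326, 309, 309 and 382 bp wide.

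To compare peaks over different control levels, the summit was set against the fewest fragments that would reach the list's lowest −log10 p, 4.22, over the same control level. This relative height had a median of 2.86 in wide solitary peaks (quartiles 1.94 and 4.41) and 1.67 in narrower ones (quartiles 1.38 and 2.17). A relative height of 4 or more was found in 173 members (30.8%, interval 27.1 to 34.7) and in 91 narrower solitary peaks (3.34%, interval 2.73 to 4.08). Low members were nonetheless common: 146 (26.0%, interval 22.5 to 29.8) were under 2, and 61 were under 1.5. Of the 82 members of 500 bp or more, 12 were under 2. Among these, chr13:103161707-103162364 spanned 658 bp with 32 fragments and a fold of 5.23, and chr16:11423596-11424206 spanned 611 bp with 45 fragments over a level of 12, a fold of 2.80. These 2 were picked after their values were seen.

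The share of wide peaks rose with relative height, and from a relative height of 2 to under 6 it was lower in solitary peaks than in peaks with a neighbour. Among solitary peaks it was 6.00% below 1.5, 8.76% from 1.5 to under 2, 19.4% from 2 to under 3, 33.8% from 3 to under 4, 56.9% from 4 to under 6 and 89.9% at 6 or more. Among peaks with a neighbour the shares in the same ranges were 5.52, 12.1, 29.9, 51.8, 74.6 and 94.8%. From 2 to under 6 the Wilson intervals of both kinds did not overlap: 28.6 to 39.4% of solitary peaks were wide in the range from 3 to under 4, against 47.2 to 56.5% of the others. Below 2 and at 6 or more they overlapped. By the number of summit fragments the gap was smaller: the shares were 2.66% in solitary peaks and 1.53% in the others under 20 fragments, 9.06 and 11.01% at 20 to 39, and 27.0 and 33.1% at 40 to 59. They were 52.0% (44.7 to 59.2) and 56.9% (52.1 to 61.5) at 60 to 79 fragments, and 78.4% (71.3 to 84.2) and 87.6% (84.2 to 90.4) at 80 or more. On this scale the intervals overlapped in every range but that of 40 to 59 fragments, where they were 23.8 to 30.5% and 30.5 to 35.9% and all but met, and under 20 the order was the reverse. Over all heights the shares were 17.1% (562 of 3286) and 24.0% (1334 of 5555). Peaks with a neighbour share surroundings and are not independent, so their intervals are too narrow, and the difference was not tested. Width and distance are both in the rule that chose the members.

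**Figure D2:**
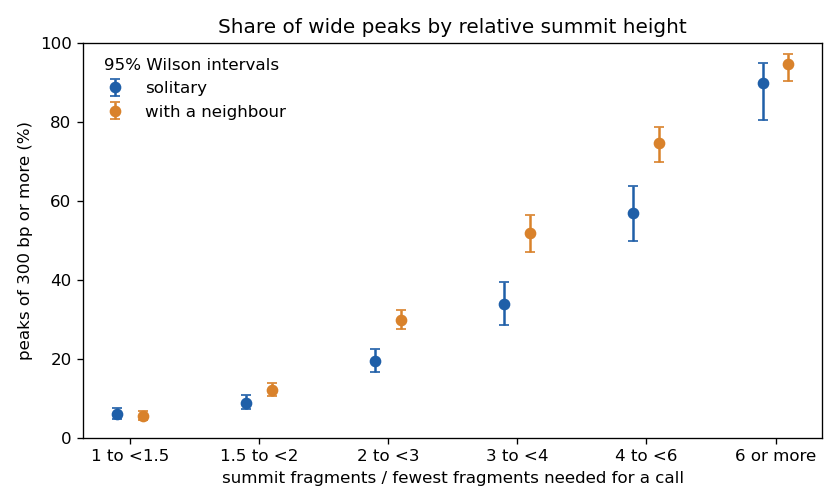
Percent of peaks that were 300 bp or wider, by the summit's fragments divided by the fewest fragments needed for a call, with 95% Wilson intervals; blue points are solitary peaks and orange points are peaks with another summit within 50 kb. Both rise with height, and in the range from 3 to under 4 the share is 33.8% in solitary peaks and 51.8% in the others.

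Wide solitary peaks reached well beyond the fragments on their summits. The fragment length was taken as 125 bp, the width of the narrowest peak, since the caller's setting is not given in the sources used here. With that length a fragment that covers the summit ends at most 124 bp from it, and the counts of ends beyond this reach rest on it. The farther end lay beyond that reach in all 562 members, which a width of 300 bp makes certain. The nearer end also lay beyond it in 311 members (55.3%, interval 51.2 to 59.4). Among wide peaks with a neighbour it did so in 860 (64.5%, interval 61.9 to 67.0). Both ends beyond the reach need a width of just over 250 bp, so most of the narrower solitary peaks could not have them, and the 36 that did are no comparison. The farther end was 250 bp or more from the summit, at least 2 fragment lengths, in 244 members (43.4%). Among wide peaks with a neighbour it was so in 613 (46.0%), and thus was not particular to solitary peaks.

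The nearer ends of members were unevenly spread around 124 bp. In 82 members the nearer end lay 115 to 124 bp from the summit, in 29 it lay 125 to 134 bp away and in 42 it lay 135 to 144 bp away. The number thus dropped just past 124 bp, and it was still lower in the last window than in the first. In wide peaks with a neighbour the same 3 windows held 151, 65 and 105 peaks, again with the fewest in the middle one. These windows were set after the values were seen.

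The summit was off centre in many members. The longer side of the summit took a median of 63.4% of the width (quartiles 56.1 and 71.0, where 50% is a central summit), against 59.2% (quartiles 54.1 and 67.1) in narrower solitary peaks and 62.4% in wide peaks with a neighbour. Low members were the most lopsided, with a median of 70.1% below a relative height of 1.5, 66.8% from 2 to under 3 and 57.3% at 6 or more. In narrower solitary peaks the medians in these ranges were 64.7, 56.8 and 56.4%, the last over only 7 peaks. At 20 to 39 summit fragments the median was 69.1% in members (95% interval of the median 66.7 to 71.1) and 59.6% in narrower peaks (58.9 to 60.2). At 60 to 79 fragments it was 62.9% against 55.6%, with quartiles of 55.7 and 67.6% against 53.0 and 58.97%. The longer side was thus the larger in members at equal height as well. Width takes part in this percentage, so it is not independent of the rule, and the difference was not tested.

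A summit almost at the end of the peak was found in 5 members, where over 88% of the width lay on 1 side. At chr7:91898468-91898771, 20 fragments stood 3 bp from one end and 300 bp from the other. The others were chr10:60610424-60610756, chr5:93635514-93635817, chr2:153248809-153249136 and chr5:53009814-53010121, with 24, 52, 25 and 27 fragments. The folds of these 5 peaks, which were picked after their values were seen, ran from 2.095 to 3.71. A nearer end under 50 bp from the summit occurred in 6 members (1.07%) and in 597 narrower solitary peaks (21.9%). Over 75% of the width lay on 1 side in 78 members (13.9%) and in 308 narrower solitary peaks (11.3%). Both measures depend on width, and summits near an end were not particular to wide peaks. Each list entry gives 1 summit, so a second, lower summit within a peak would not show in these data.

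**Figure D3:**
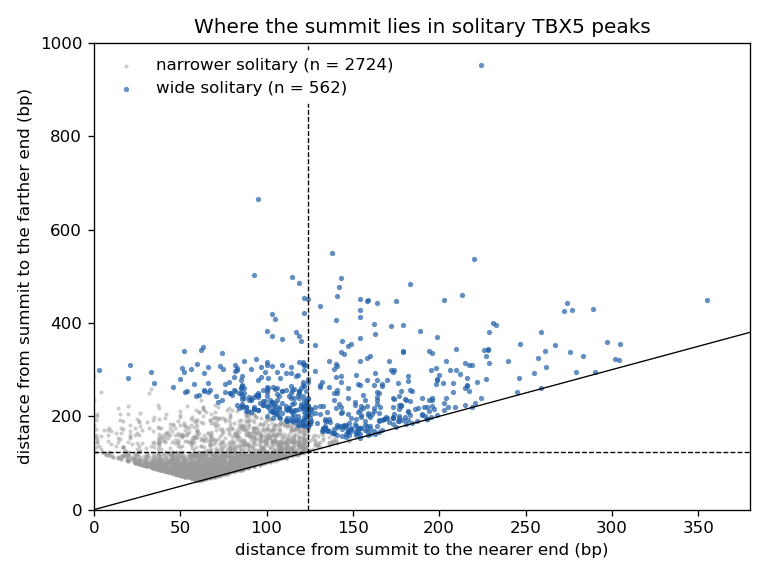
Distance in bp from the summit to the nearer end (horizontal) and to the farther end (vertical) of each solitary peak; blue points are wide peaks, grey points narrower ones, the solid line marks a central summit and the dashed lines the 124 bp reach of a fragment on the summit. Of the wide peaks, 311 lie to the right of the vertical dashed line, and a thin gap follows that line.

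The control level was higher at wide solitary peaks than at narrower ones, but at equal fragments it was not. Its median was 4 at members (quartiles 2.25 and 6, range 1.18 to 22) and 3 at narrower solitary peaks (quartiles 1.75 and 5, range 1.18 to 24). The level was at the genome background in 39 members (6.94%, interval 5.12 to 9.35) and in 424 narrower solitary peaks (15.6%, interval 14.3 to 17.0). A whole-number level, as the summit's own window of control fragments gives, was found in 383 members (68.1%) and 1527 narrower peaks (56.1%). Windows of 1 kb and 10 kb can also give whole numbers, so these are upper counts for the summit's own window. Among peaks of 20 to 39 fragments the median level was 3 in both. Among those of 40 to 59 it was 5 in 184 members and 6 in 497 narrower peaks, and among those of 60 to 79 it was 4 in 93 members and 6 in 86 narrower peaks. At 80 or more it was 5 in 120 members and 5.12 in 33 narrower peaks. At equal relative height the order was the reverse: from 2 to under 3 the median level was 4 in 145 members and 2.12 in 601 narrower peaks. The control level also enters the caller's own threshold for the edge of a peak, and its part in these orders was not tested.

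**Figure D4:**
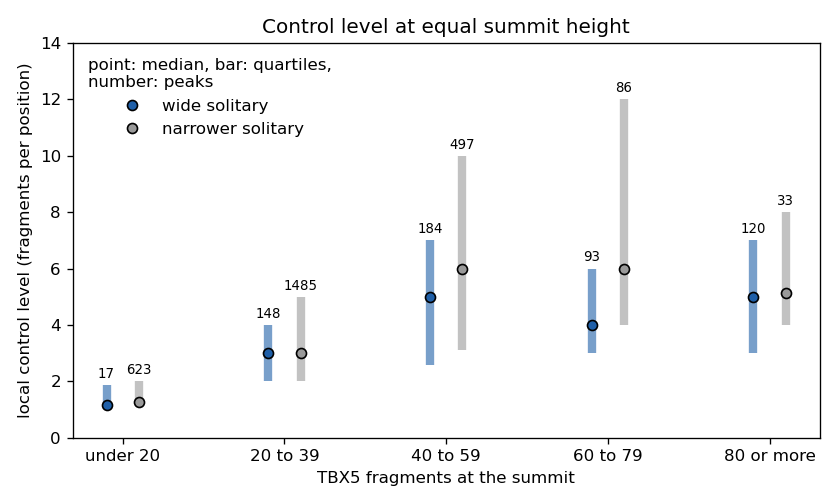
Local control level, in control fragments per position, by TBX5 fragments at the summit; points are medians, bars run from the lower to the upper quartile and the numbers count peaks, with wide solitary peaks in blue and narrower solitary peaks in grey. At 60 to 79 fragments the medians are 4 and 6.

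The members with the lowest folds stood over high control levels, from 17 to 22. A fold this low reaches the list's cutoff only over a high control level, so the calling sets this order. The lowest fold, 1.99, was at chr7:140900590-140900907, where 57 TBX5 fragments (43.2 to 73.9) stood over a level of 22, the highest among members. At chr1:74433303-74433626, 52 fragments stood over a level of 20, a fold of 2.00. A pair of members on chromosome 5 came next and lay only 60.5 kb apart: chr5:93696152-93696531 with 54 fragments over a level of 20 and a fold of 2.07, and chr5:93635514-93635817 with 52 fragments over a level of 19 and a fold of 2.095. The fifth, chr5:36924654-36924998, had 47 fragments over 17 and a fold of 2.11. All 5 were 304 to 380 bp wide and had −log10 q values from 1.57 to 2.15, near the list's lowest value of 1.30. A high control level did not always mean a weak peak: chr8:47636940-47637354 had 121 fragments (100 to 145) over a level of 19 and a fold of 4.81, and chr9:117949374-117949970 spanned 597 bp with 98 fragments over 19 and a fold of 3.90. Control levels of at least 10 occurred at 55 members (9.79%) and 214 narrower solitary peaks (7.86%), and 34 of the 55 were under 2 in relative height.

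Wide solitary peaks lay on all 20 chromosomes, and their share of solitary peaks ran from 9.85% to 25.4%. Chromosome 18 had the lowest share, 13 of 132 (interval 5.85 to 16.1), and chromosome 4 the highest, 49 of 193 (interval 19.8 to 32.0). These intervals do not overlap, but they are the extremes of 20 chromosomes and no test was run. Chromosome 1 was next to the lowest, with 28 of 242 (11.6%, interval 8.13 to 16.2), and chromosome 5 next to the highest, with 44 of 196 (22.4%, interval 17.2 to 28.8). The intervals of the remaining chromosomes all held the autosomal share of 17.1%. Solitary peaks on chromosomes 4 and 18 had median relative heights of 1.68 and 1.78 and medians of 31 and 27.5 fragments. A relative height of 3 or more was reached by 45 of 193 on chromosome 4 and by 14 of 132 on chromosome 18. From 2 to under 3 in relative height, 8 of 32 solitary peaks on chromosome 4 and 3 of 37 on chromosome 18 were wide, with overlapping intervals (13.3 to 42.1% and 2.80 to 21.3%). At 3 or more they were 28 of 45 and 6 of 14, with intervals of 47.6 to 74.9% and 21.4 to 67.4%.

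On chromosome 4 the member of highest score was chr4:49054416-49054919, 504 bp wide with 135 fragments over a level of 6 and a fold of 15.3. On chromosome 18 it was the site named above as the second of all members. Among the highest-scoring members of chromosomes 6, 7, 12, 13, 15, 16 and 19, the tallest were chr19:24287042-24287369 with 138 fragments in 328 bp, chr13:32771788-32772400 with 133 in 613 bp and chr16:43701858-43702338 with 130 in 481 bp. Those on chromosomes 6, 12, 15 and 7 were chr6:42319776-42320231, chr12:32253463-32253841, chr15:88904726-88905302 and chr7:82007738-82008095, with 103, 100, 100 and 86 fragments. Every autosome thus held at least 1 member of 86 fragments or more.

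Chromosome X held 12 members among 70 solitary peaks, 17.1% (interval 10.1 to 27.6), which was the autosomal share. The X peaks were lower: the median was 42 fragments in members on X and 53 in those on autosomes, over median control levels of 1.28 and 4. Of the 12, 6 stood over the genome background. Their median fold was 9.46 against 8.51 on autosomes. The tallest on X, chrX:132493239-132493650, had 63 fragments over a level of 3, and the widest, chrX:102968547-102969107, spanned 561 bp with 39 fragments. Under 20 fragments 3 of 32 solitary peaks on X were wide (9.38%, interval 3.24 to 24.2). On autosomes 14 of 608 were (2.30%, interval 1.38 to 3.83), so the intervals overlapped slightly. At 20 to 39 fragments 3 of 28 solitary peaks on X were wide (10.7%), against 9.03% on autosomes. From 2 to under 3 in relative height the shares were 17.4 and 19.5%, and at 3 or more they were 5 of 10 and 48.9%. Only at 40 to 59 fragments, of the ranges compared, did the intervals not overlap: 5 of 8 on X were wide (62.5%, interval 30.6 to 86.3), against 179 of 673 on autosomes (26.6%, interval 23.4 to 30.1). The median control level of the solitary peaks in that range was 2 on X and 6 on autosomes, and its part in the result was not tested.

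**Figure D5:**
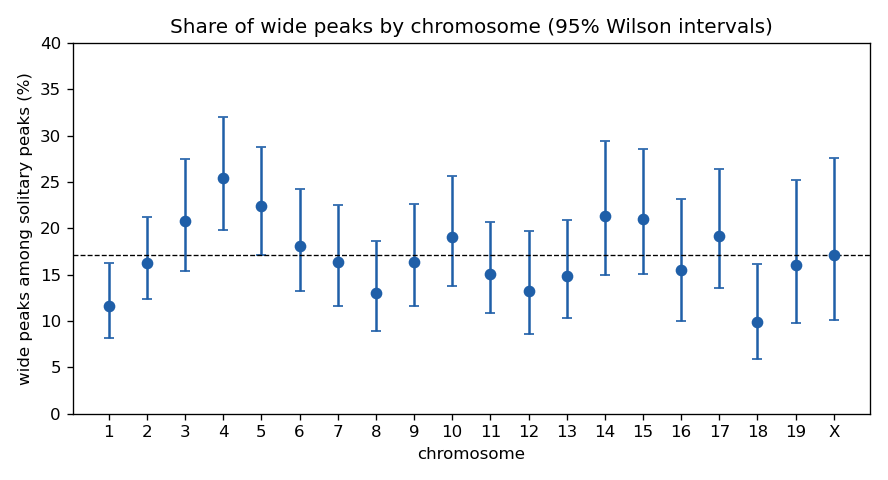
Percent of solitary peaks that were wide on each chromosome, with 95% Wilson intervals; the dashed line is the autosomal share of 17.1%. Chromosome 18 is lowest at 9.85%, chromosome 4 is highest at 25.4% and X sits on the line.

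The surroundings of wide solitary peaks were like those of narrower ones in most measures, none of which was tested. The next summit was a median of 123.3 kb away (95% interval of the median 110.8 to 132.2) in members and 133.7 kb (127.2 to 139.1) in narrower solitary peaks. It was over 250 kb away in 141 members (25.1%, interval 21.7 to 28.8) and 714 narrower peaks (26.2%, interval 24.6 to 27.9). Within 1000 kb on either side of the summit both had a median of 9 other peaks, with quartiles of 5 and 13.75 in members and 4 and 14 in narrower peaks. The nearest peak was itself solitary for 63.3% of members and 63.2% of narrower peaks. It was wide for 131 members (23.3%, interval 20.002 to 27.0) and 517 narrower peaks (18.98%, interval 17.6 to 20.5), and these intervals overlap slightly. Of all 8841 peaks, 1896 (21.4%) were wide, so both shares lay near that of the list.

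The most isolated members were a pair of successive peaks on X, chrX:83132053-83132374 and chrX:87223966-87224327, which were each other's nearest peak at 4092 kb. They were 322 and 362 bp wide and held 48 and 56 fragments over the genome background, with folds of 17.8 and 20.7. On chromosome 4, chr4:70195913-70196300 and chr4:19635996-19636377 had their next summits 3218 and 3140 kb away, with 53 and 41 fragments over levels of 12 and 10 and folds of 3.28 and 3.02. The fifth, chr9:7270092-7270504, lay 2142 kb from the next summit and was among the strong ones, with 107 fragments (87.7 to 129) over a level of 1.5 and a fold of 34.1. Among these most isolated members there were thus strong and weak peaks. The rank correlation of distance with width over the 562 members was -0.0617, and none of distance with fragments or fold is given.

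The thresholds cut through a continuous range. There were 55 solitary peaks from 300 to under 310 bp and 65 from 290 to under 300 bp. The narrowest members were 301 bp, and 7 had this width: chr9:29882884-29883184, chr15:98544811-98545111, chr4:108036786-108037086, chr6:116365199-116365499 and chr18:55411796-55412096, the 5 of highest score, had 72, 82, 51, 26 and 19 fragments. Just outside, 8 solitary peaks were 299 bp wide, and the 5 of highest score, such as chr5:104058536-104058834 with 98 fragments and chr1:158649128-158649426 with 40, had 40 to 98 fragments. The members closest to the distance threshold were chr12:100624616-100624933, chr18:73913595-73913901 and chr1:162755706-162756030, with the next summit at 50.1, 50.1 and 50.5 kb. Wide peaks that just missed it were chr17:50209221-50209813, chr4:148913433-148913916 and chr4:116044274-116044626, at 49.9, 49.7 and 49.6 kb. The first of these was 593 bp wide, and the second held 112 fragments and had a fold of 16.2.

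Among solitary peaks under 300 bp, the 5 of highest score had 87 to 135 fragments. The first, chr3:49390021-49390288, was 268 bp wide with 97 fragments (78.7 to 118) over a level of 1.25 and a fold of 34.4. Next were chr17:79799744-79800039, chr1:53326771-53327050 and chr18:38177004-38177280, 296, 280 and 277 bp wide with 96, 87 and 111 fragments. The fifth, chr4:141765787-141766042, was 256 bp wide and had 135 fragments (113 to 160) over a level of 7. It held as many fragments as the members chr5:74757569-74758101 and chr10:115869445-115869916 held in 533 and 472 bp.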

How the data were processed

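The deposited file is 1 merged list of 8849 TBX5 peaks on mm9 with the 10 columns of a MACS2 narrowPeak file. The submitters' processing notes name MACS2 2.1.1.20160309.0, Bowtie2 2.2.6.2 and FastQC 0.10.0. How the peaks were called and merged, and against which control library, is not given in the sources used here. Per the file's values, the authors deposited a score (the whole part of 10 times −log10 q in 8846 peaks), a fold enrichment (ratio), −log10 p and −log10 q.

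The summit fragments and control level of each peak were solved from the deposited fold and −log10 p with 1 scale (0.787) and a genome background of 1.18, with a tolerance of 0.005 on −log10 p. The largest difference was 0.000137. In the solving, 1 was added to both the scaled pileup and the control level before their ratio was taken. A scale smaller by a factor of 2 would fit as well with all fragment numbers doubled, and the larger scale was taken. More than 1 solution lay within that tolerance for 240 peaks (9 members), and the closest was taken. On 2647 and 2757 simulated peaks both numbers came back right for 100%, which checks the solving only and says nothing of the choice between these scales. The simulated heights and control levels ended below the highest of members, 216 fragments and a level of 22. They also left out the finer steps of a 10 kb control window, so the check does not cover such peaks. The depth of the libraries is unknown.

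Coordinates count from 1. Solitary means no other summit of the list within 50 kb. The caller's numbers include 73 that are not analysed here, and 15 members are next to such a number, so their isolation rests on the list alone. Y and contigs (8 peaks) were left out. Intervals of medians are 95% order-statistic intervals. Named peaks were the 15 members of highest score, the 5 widest, of highest and of lowest fold, of highest control level and farthest from the next summit, the best of each chromosome, those next to each threshold, and the 5 highest-scoring narrower solitary peaks; the members of fewest fragments were added. Members and rules were chosen with earlier results of these data known. The software was matplotlib 3.10.9, scipy 1.17.1, pandas 2.3.3, numpy 2.4.6 and Python 3.11.15. Planned descriptions by gene, gene list, cell type marker and motif were not run, since no mm9 sequence or annotation was used here, and the IgG sample was not analysed here.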

Additional observations from a re-analysis of the deposited data

How the results depend on the processing

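Of 87 values recomputed under 12 alternatives, 53 stayed within limits (a factor of 1.5 for counts, the 95% interval of the reported value otherwise) and 34 moved. In all 7 settings tried for each, the medians of fragments and fold were higher in wide than in narrower solitary peaks, as was the longer side of the summit in 8 of 8. The settings for fold did not hold height equal. At equal relative height the median fold was lower in wide peaks in every range, such as 7.11 against 7.41 from 2 to under 3. At equal summit fragments it was higher in every range, such as 10.3 against 7.32 at 60 to 79 fragments. The control level was higher in 7 of 10, lower in 2 and equal in 1. The settings where it was not higher were the ranges of equal summit fragments. It was equal at 20 to 39 fragments and lower at 40 to 59 and at 60 to 79. The cause of these moves was not tested. The number of wide solitary peaks was 937 at 250 bp, 198 at 400 bp, 337 at a distance of 100 kb and 879 with only peaks from the median score up as neighbours. At 250 bp the wide and narrower medians were 46 and 26 fragments and folds of 7.69 and 5.16, the longer side was 62.2% in wide peaks, and 28.6% (X) and 28.5% (autosomes) were wide. At 400 bp they were 63 and 29 fragments and folds of 10.2 and 5.47, and 5.71% (X) and 6.03% (autosomes) were wide. With −log10 q of 10 or more they were 59.5 and 39 fragments and folds of 10.5 and 8.28, with a control level of 2.75 in narrower peaks. At 20 to 39 fragments the control level of wide peaks was 3, their longer side 69.1%, and 9.03% were wide on autosomes. At 40 to 59 fragments the control levels were 5 and 6, the longer side 58.4% in narrower peaks, and 62.5% (X) and 26.6% (autosomes) were wide. At 60 to 79 fragments the control level was 6 and the longer side 55.6% in narrower peaks, and 100% (X, 1 peak) and 51.7% (autosomes) were wide. Leaving out peaks next to a caller number that was not analysed, which was chosen after seeing the data, moved no value. The alternatives planned for promoter windows and motif windows were not run, since no sequence of that build was used. No paired analysis was possible because 1 merged list leaves no samples to pair, and no replicate could be left out. The q threshold sets the weak end, so peaks below it and their widths were not seen.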

Other observations

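Some wide solitary peaks followed each other in the list with no other peak between them. There were 72 such successive pairs, which took in 135 of the 562 members, with a median of 264.8 kb (54.2 to 4092 kb) between summits, and the longest run held 4 members. No like count is given for the other peaks. These numbers therefore do not show whether members follow each other more often than their share of the list would give. Chromosome Y and contigs, which the rule leaves out, held 8 peaks, all 143 to 270 bp wide.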
